A study of Caenorhabditis elegans with 12 samples.

Results

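The synaptonemal complex and crossover genes of Caenorhabditis elegans followed here across 12 libraries were syp-1, syp-2, syp-3, syp-4, msh-5, cosa-1, zhp-3 and him-6. They were taken by gene name from the 20222 genes listed in each table, and all 8 were found. The libraries hold polyadenylated RNA of whole animals at day 1 of adulthood, grown at 20 °C on E. coli OP50 after picking at the L4 larval stage. Each of 4 strains gave 3 libraries: N2, the laboratory wild type; AV477, which carries dsb-2(me96); AV157, which carries spo-11(me44); and TY4986, which carries htp-3(y428). The 3 samples of a strain are biological replicates by the series text; strains are called by their mutated gene. Each allele was studied in a single strain, so its effect and that of the strain background cannot be told apart. How homozygous mutant animals were obtained is not given in the sources used here. In whole animals, fewer germ cells and less RNA per germ cell cannot be told apart.

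In meiotic prophase the synaptonemal complex forms between paired homologous chromosomes and holds them along their length. Its central region is built from the SYP proteins, which in C. elegans can assemble without the DNA breaks made by SPO-11, whereas loading needs the chromosome axis, of which HTP-3 is a part. DSB-2 promotes break formation. Some breaks are then designated as crossovers by a group of factors that includes MSH-5, COSA-1 and ZHP-3, and HIM-6, a helicase related to human BLM, acts on the recombination intermediates.

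Each library had between 32422219 and 42527086 mapped reads, a depth recovered from the deposited values. The strain labels were compared with the mutated genes' own transcripts, in TPM (transcripts per fixed total of transcripts, that is reads divided by exon length and brought to the same sum in every library). The dsb-2 transcript averaged 18.5 TPM in dsb-2 and 58.5 TPM in N2, and the htp-3 transcript 9.50 TPM in htp-3 and 71.6 TPM in N2. Both were also lower than in N2 in other mutants. The dsb-2 transcript averaged 40.2 TPM in spo-11 and 32.8 TPM in htp-3, and the htp-3 transcript 31.3 TPM in spo-11. In every library of its own mutant each was lower than in any library of another strain. The spo-11 transcript averaged 36.2 TPM in its own mutant, against 33.3 TPM in N2 (adjusted p = 0.569), so it did not check that label. Differences below are log2 fold changes on the log2(TPM + 1) scale with their standard error (SE), from limma fitted over 13650 genes, with calls made at adjusted p-values under 0.05. All 8 genes passed the filter on low values, none was listed at 0 in any library, and msh-5 was the lowest of them.

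Of the 8 genes, cosa-1, him-6 and syp-2 were lower than in N2 in both spo-11 and htp-3, syp-4 was also called lower in htp-3, and none was called higher. The fall was deepest for cosa-1, the cyclin-like protein that marks designated crossover sites, at 0.384 of its N2 mean TPM in spo-11 and 0.411 in htp-3. In spo-11 3 of the 8 were lower, in a comparison where 22.1% of all genes tested were lower and 55.6% higher. In htp-3 4 of the 8 were lower, against 19.7% of all genes lower and 39.5% higher. The median log2 fold change of the 8 genes was -0.45 in spo-11 and -0.61 in htp-3, beside 0.80 and 0.27 for all genes tested.

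In dsb-2 none of the 8 genes was called in either direction by limma, where 0.190% of all genes were higher and 0.0733% lower. Their median was 0.12, beside 0.02 for all genes. At an unadjusted p under 0.05, msh-5 alone of the 8 passed (log2 fold change 0.83 ± 0.384, unadjusted p = 0.0484, adjusted p = 0.469). At that level 1448 of all 13650 genes tested passed, so 1 of 8 is near the share of all genes. Between the mutants, 1 gene was lower in htp-3 than in spo-11, the structural gene syp-1, in a comparison with 38.6% of all genes lower and 8.10% higher. The mutants' comparisons with N2 share the same N2 libraries.

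**Figure D1:**
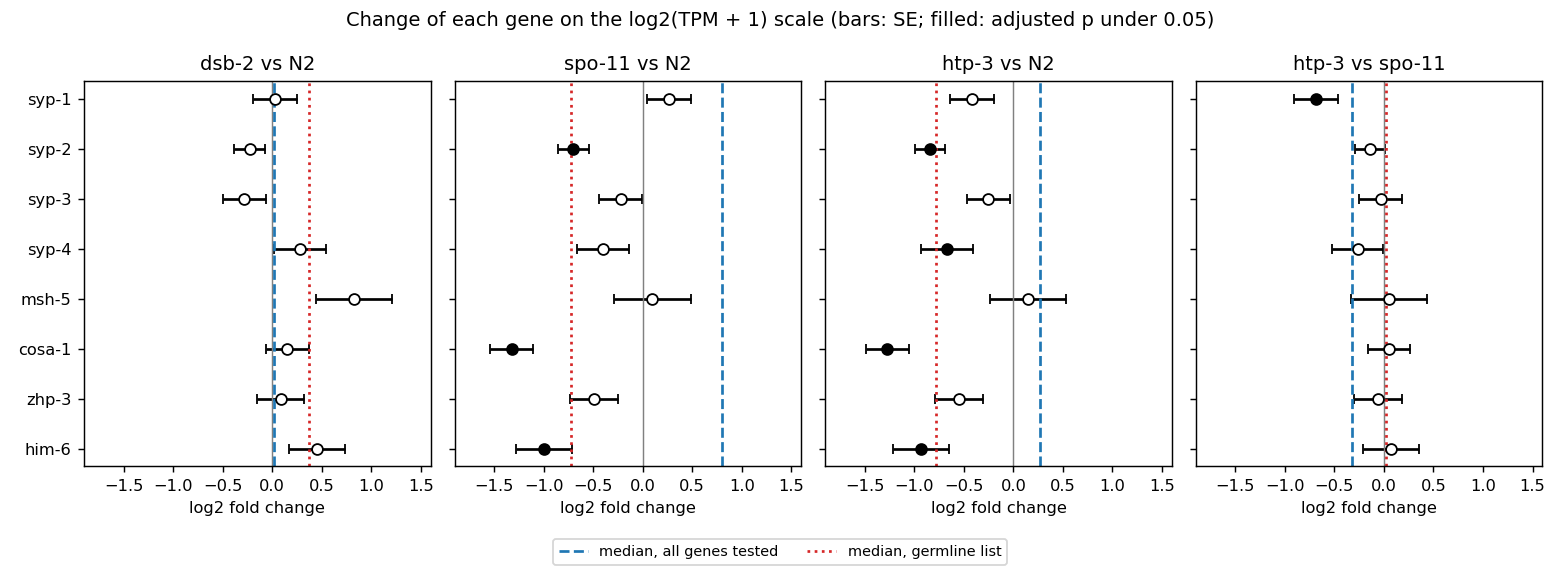
Log2 fold change of each gene on the log2(TPM + 1) scale in the 4 comparisons, with bars for the SE and filled points for an adjusted p under 0.05; the dashed line is the median of all genes tested and the dotted line that of a list of 20 germline genes. In spo-11 and htp-3 cosa-1 lies farthest left, at -1.32 and -1.27, and in dsb-2 no point is filled.

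In N2 the 8 genes spanned a wide range of levels per unit of exon length. The highest mean was that of syp-2 (121 ± 5.30 TPM; SD, n = 3), and it lay above syp-3 (71.8 TPM) without overlap of their libraries. Below it came syp-4 (68.9 TPM), zhp-3 (46.7 TPM), syp-1 (40.7 TPM), him-6 (34.7 TPM) and cosa-1 (34.4 TPM), and each of these overlapped its neighbour in the order. The lowest was msh-5 (8.75 ± 4.37 TPM), below every cosa-1 library. In dsb-2 syp-2 (103 TPM) was followed by syp-4 (83.7 TPM) and syp-3 (59.8 TPM), and cosa-1 again lay above msh-5 without overlap. In spo-11 syp-1 followed syp-4 and lay above zhp-3 without overlap, zhp-3 lay above him-6 without overlap, and cosa-1 lay just above msh-5. In htp-3 every neighbouring pair in the order overlapped.

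**Figure D2:**
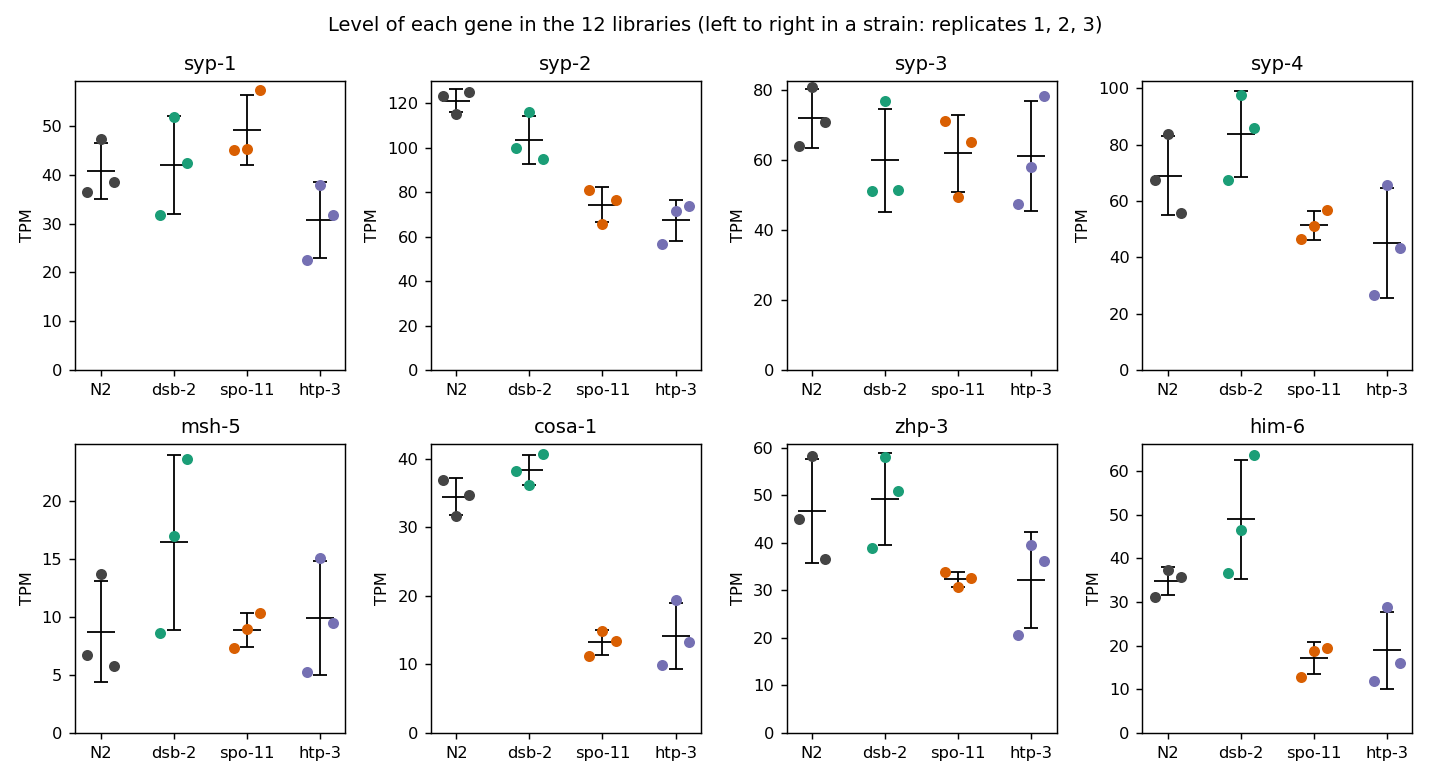
TPM of each gene in the 12 libraries by strain; points are libraries, with the mean and SD of the 3 libraries of a strain, and each vertical axis starts at 0. For cosa-1 the spo-11 and htp-3 libraries reach at most 19.4 TPM and the N2 and dsb-2 libraries start at 31.6 TPM, while the strains overlap for msh-5 and syp-3.

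Of the 4 central region genes, syp-2 was called lower in both spo-11 and htp-3, syp-4 in htp-3, and syp-1 and syp-3 in neither, whereas under median-of-ratios scaling all 4 were lower in both strains (spo-11 values from -0.55 down to -1.53, htp-3 values from -0.67 down to -1.27). Under that scaling 39.9% of all genes were lower in spo-11 and 34.7% in htp-3, against 22.1% and 19.7% in TPM. The syp-2 gene (WBGene00006376; chromosome V, 5536681 to 5537713, WBcel235, plus strand, 4 exons) was at 123, 115 and 125 TPM in N2 replicates 1 to 3. It was at 99.6, 116 and 94.9 TPM in dsb-2, at 81.01, 65.7 and 76.3 TPM in spo-11 and at 56.9, 71.6 and 73.8 TPM in htp-3. Every spo-11 and htp-3 library was below every N2 library, whereas dsb-2 overlapped N2. The log2 fold change was -0.70 ± 0.154 in spo-11 (adjusted p = 0.000683) and -0.84 ± 0.154 in htp-3 (adjusted p = 0.000429). In dsb-2 it was -0.23 ± 0.154 (adjusted p = 0.625).

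The syp-1 gene (WBGene00006375; chromosome V, 16405751 to 16407699, plus strand, 6 exons) encodes another structural protein of the central region, and its strains were ordered differently. It was at 36.4, 47.3 and 38.5 TPM in N2 and at 31.8, 51.9 and 42.4 TPM in dsb-2. In spo-11 it was at 45.0, 45.2 and 57.4 TPM, and in htp-3 at 22.5, 37.8 and 31.8 TPM. The spo-11 libraries lay above all htp-3 libraries, and every mutant strain overlapped N2. Against N2 the log2 fold change was 0.27 ± 0.221 in spo-11 (adjusted p = 0.280) and -0.42 ± 0.221 in htp-3 (adjusted p = 0.114). From spo-11 to htp-3 it was -0.68 ± 0.221 (adjusted p = 0.0189), or 0.625 of the mean TPM. That call ended without spo-11 replicate 3 (adjusted p = 0.0889), without htp-3 replicate 1 (0.0784) and under median-of-ratios scaling (-0.28, adjusted p = 0.235). Over all alternatives its adjusted p ranged from 0.00534 to 0.235.

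The syp-3 gene (WBGene00006377; chromosome I, 8663048 to 8664143, minus strand, 7 exons) showed the widest overlap between strains among the central region genes. It was at 64.1, 80.7 and 70.8 TPM in N2, at 51.1, 76.9 and 51.5 TPM in dsb-2, at 70.99, 49.5 and 65.0 TPM in spo-11 and at 47.3, 58.0 and 78.1 TPM in htp-3. No strain was separated from another. The log2 fold changes from N2 were -0.28 ± 0.217, -0.22 ± 0.217 and -0.25 ± 0.217 in dsb-2, spo-11 and htp-3, with adjusted p of 0.697, 0.356 and 0.323. The last 80 bases of syp-3 overlap mrt-1 on the opposite strand, and the strandedness of the counting is not given in the sources used here. The mrt-1 gene itself fell, from 45.1 TPM in N2 by -1.15 in spo-11 and -1.03 in htp-3 on the log2 scale (adjusted p = 4.11e-05 and 0.00041).

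The syp-4 gene (WBGene00019247; chromosome I, 6847511 to 6849923, plus strand, 8 exons) was at 67.3, 83.6 and 55.8 TPM in N2. It was at 67.5, 97.6 and 86.0 TPM in dsb-2, at 46.4, 51.1 and 56.7 TPM in spo-11 and at 26.8, 65.6 and 43.2 TPM in htp-3. Among the htp-3 libraries replicate 1 was lowest and replicate 2 lay within the N2 range. The log2 fold change was -0.67 ± 0.261 in htp-3 (adjusted p = 0.0389), -0.40 ± 0.261 in spo-11 (adjusted p = 0.171) and 0.28 ± 0.261 in dsb-2 (adjusted p = 0.778). The htp-3 call ended without any of 5 libraries: N2 replicate 1 (adjusted p = 0.0803), N2 replicate 2 (0.147), spo-11 replicate 2 (0.0501), htp-3 replicate 1 (0.208) or htp-3 replicate 3 (0.0755). It also ended with no filter on low values (0.0723) and with only the strains compared in the fit (0.0776).

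Among the genes that act at crossover sites, cosa-1 (WBGene00022172; chromosome III, 2726080 to 2731670, plus strand, 9 exons) fell most. It was at 36.9, 31.6 and 34.7 TPM in N2 and at 38.2, 36.2 and 40.6 TPM in dsb-2. It was at 11.3, 14.9 and 13.5 TPM in spo-11 and at 9.84, 19.4 and 13.2 TPM in htp-3. The spo-11 and htp-3 libraries all lay below the N2 and dsb-2 libraries, with a wide gap. The log2 fold change was -1.32 ± 0.215 in spo-11 (adjusted p = 4.3e-05), -1.27 ± 0.215 in htp-3 (adjusted p = 0.000247) and 0.15 ± 0.215 in dsb-2 (adjusted p = 0.898). Of all genes tested, 2.2% had a lower log2 fold change in spo-11 and 0.3% in htp-3. In every alternative cosa-1 was called lower in both strains, with a highest adjusted p of 0.0167 and 0.0254. The last 325 bases of cosa-1 overlap Y71H2AM.12 on the opposite strand. That gene moved the other way, from 4.06 TPM in N2 by 0.67 in spo-11 and 0.92 in htp-3 on the log2 scale (adjusted p = 0.0109 and 0.00248), but under median-of-ratios scaling by -0.02 in spo-11.

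The zhp-3 gene (WBGene00006976; chromosome I, 8529380 to 8531338, minus strand, 11 exons), which encodes a RING finger protein related to yeast Zip3, lay close to the threshold. It was at 45.0, 58.3 and 36.6 TPM in N2 and at 38.9, 58.1 and 50.9 TPM in dsb-2. It was at 33.8, 30.6 and 32.6 TPM in spo-11 and at 20.7, 39.5 and 36.3 TPM in htp-3. All spo-11 libraries were below the N2 libraries, while htp-3 replicate 2 lay above N2 replicate 3. The log2 fold change was -0.49 ± 0.241 in spo-11 (adjusted p = 0.0738), -0.55 ± 0.241 in htp-3 (adjusted p = 0.0609) and 0.08 ± 0.241 in dsb-2 (adjusted p = 0.975), so it was not called. With RPKM in place of TPM it was called lower in both (adjusted p = 0.0444 and 0.0489). Over all alternatives the adjusted p ranged from 2.43e-05 to 0.523 in spo-11 and from 0.000802 to 0.806 in htp-3.

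The msh-5 gene (WBGene00003421; chromosome IV, 13155228 to 13164056, plus strand, 22 exons) encodes a MutS homolog that pairs with MSH-4 (HIM-14) and stabilises crossover intermediates. It was at 6.75, 13.8 and 5.74 TPM in N2 and at 8.64, 17.0 and 23.7 TPM in dsb-2. It was at 7.33, 9.01 and 10.3 TPM in spo-11 and at 5.26, 15.1 and 9.46 TPM in htp-3. Replicates of N2, dsb-2 and htp-3 each spread by an SD of 45.8% to 49.9% of their mean, so differences of the size seen for syp-2 were within the spread here. The log2 fold change was 0.10 ± 0.384 in spo-11 (adjusted p = 0.822) and 0.15 ± 0.384 in htp-3 (adjusted p = 0.745). The dsb-2 mean was 1.88 times that of N2, but the libraries overlapped.

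The him-6 gene (WBGene00001865; chromosome IV, 12490791 to 12495298, plus strand, 13 exons), the BLM-related helicase, fell with cosa-1. It was at 31.2, 37.4 and 35.7 TPM in N2 and at 36.7, 46.5 and 63.6 TPM in dsb-2. It was at 12.9, 18.9 and 19.6 TPM in spo-11 and at 11.8, 28.9 and 16.1 TPM in htp-3. No spo-11 or htp-3 library reached the lowest N2 library, though htp-3 replicate 2 came near it. The log2 fold change was -0.999 ± 0.282 in spo-11 (adjusted p = 0.00447), -0.93 ± 0.282 in htp-3 (adjusted p = 0.0111) and 0.45 ± 0.282 in dsb-2 (adjusted p = 0.592). The htp-3 call ended without htp-3 replicate 1 (-0.66, adjusted p = 0.0618). Over all alternatives its adjusted p ranged from 0.000297 to 0.161 in htp-3 and from 5.6e-06 to 0.116 in spo-11.

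Libraries of a strain were high or low together for many of the 8 genes. In htp-3, replicate 1 was the lowest library for all 8 genes and replicate 2 the highest for 6. Without replicate 1, cosa-1 and syp-2 were the 2 genes called lower in htp-3, beside 13.1% of all genes. Without replicate 2, 6 genes were, beside 24.2% of all genes. The count was 5 without N2 replicate 3, beside 17.8% of all genes. It was 3 without N2 replicate 1, N2 replicate 2, spo-11 replicate 2 or htp-3 replicate 3, beside 14.9% to 18.8% of all genes. With all libraries the share was 19.7%. In N2 replicate 2 was the highest for 6 genes, and in dsb-2 replicate 1 was the lowest for 6. The share of all genes with the same highest or lowest library was not counted in any strain. The summed TPM of 20 germline genes that act outside recombination (stem cell regulators, P granule and RNA-binding proteins) followed the same order in htp-3, at 1188, 2450 and 1474 TPM in replicates 1 to 3. Its part in the result was not tested.

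Of 4 other genes of the central region, 2 were lower and 1 higher in spo-11 and 2 were lower in htp-3, but relative to the germline list none was lower, with 2 higher in spo-11 and 1 in htp-3. Under median-of-ratios scaling none was higher, with 2 lower in spo-11 and 3 in htp-3, and limma-voom and removal of the exon length trend gave the same counts. The shares of all genes lower were 22.1% and 19.7% in TPM and 39.9% and 34.7% under median-of-ratios scaling. Relative to the germline list 66.2% of all genes were higher in spo-11 and 53.8% in htp-3. The syp-5 gene was called lower in spo-11 (-0.63, adjusted p = 0.0469) and in htp-3 (-0.66, adjusted p = 0.0476), from 43.3 TPM in N2. Its close relative syp-6 was at 0.11 in spo-11 and 0.00 in htp-3 (adjusted p = 0.788 and 0.993). The Skp1-related proteins SKR-1 and SKR-2 are structural components of the complex as well as parts of ubiquitin ligases. In spo-11 skr-2 fell by 0.89 (adjusted p = 2.09e-05) and skr-1 was called higher by 0.63 (adjusted p = 0.000768), but skr-1 was at -0.20 under median-of-ratios scaling. In htp-3 skr-2 fell by 0.86 (adjusted p = 0.000143) and skr-1 was at -0.04 (adjusted p = 0.811). The skr-1 and skr-2 genes are close paralogs, so reads may have been split between them and their single values are uncertain.

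Among 16 other genes of crossover designation and of processing of crossover intermediates, 11 were called lower and 0 higher in spo-11, and 9 lower and 0 higher in htp-3, although relative to the germline list 3 were higher and 3 lower in spo-11 and 1 lower in htp-3. Under median-of-ratios scaling 16 of 16 were lower in spo-11 and 15 in htp-3, and with limma-voom 14 in each. The shares of all genes lower were 22.1% and 19.7% in TPM, 39.9% and 34.7% under median-of-ratios scaling and 35.2% and 32.1% with limma-voom. Relative to the germline list 66.2% of all genes were higher and 3.10% lower in spo-11, and 53.8% and 0.549% in htp-3. In dsb-2 none of the 16 was called, with log2 fold changes from -0.12 to 0.52. Their median was -0.93 in spo-11 and -0.64 in htp-3. The RING finger gene zhp-2 fell most in both, by 1.45 in spo-11 (adjusted p = 2.78e-05) and by 1.28 in htp-3 (adjusted p = 0.000325), from 48.6 TPM in N2. Its relatives differed: zhp-4 fell by 1.24 in spo-11 (adjusted p = 0.000112) and by 0.64 in htp-3 (adjusted p = 0.0221), and zhp-1 was at 0.17 and -0.34 (adjusted p = 0.479 and 0.186). The zhp-4 value was also higher in htp-3 than in spo-11 (0.60, adjusted p = 0.0379), the 1 gene of the 16 called between those strains on the TPM scale. Between those strains 5 of the 16 were higher under median-of-ratios scaling, 5 with limma-voom and 9 with the exon length trend removed. There, 22.4%, 14.6% and 31.3% of all genes were higher, against 8.10% in TPM.

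The partner of msh-5, msh-4 (him-14), was lower in spo-11 (-1.05, adjusted p = 0.00229) and at -0.42 in htp-3 (adjusted p = 0.188). Of the resolution nucleases and their scaffold, xpf-1 (-1.36 and -0.83), slx-1 (-1.003 and -0.98) and mus-81 (-0.96 and -0.64) were lower in both strains, him-18 was called in htp-3 (-0.65, adjusted p = 0.0311) and not in spo-11 (-0.46, adjusted p = 0.0946), and the resolvase gene gen-1 was at 0.12 and -0.41 (adjusted p = 0.671 and 0.156). The genes brc-1 and brd-1, homologs of human BRCA1 and BARD1, fell side by side, by 1.12 each in spo-11 and by 0.99 and 1.11 in htp-3. Among the partners of BLM, rmh-2 was lower in both (-0.88 and -0.90), rmh-1 in spo-11 (-0.72, adjusted p = 0.0438; in htp-3 -0.60, adjusted p = 0.102) and top-3 was not called (-0.58 and -0.21). The anti-crossover helicase gene rtel-1 was lower in spo-11 (-0.90, adjusted p = 0.0113) and at -0.23 in htp-3, and the kinase gene cdk-2 was called in neither (-0.18 and -0.48).

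**Figure D3:**
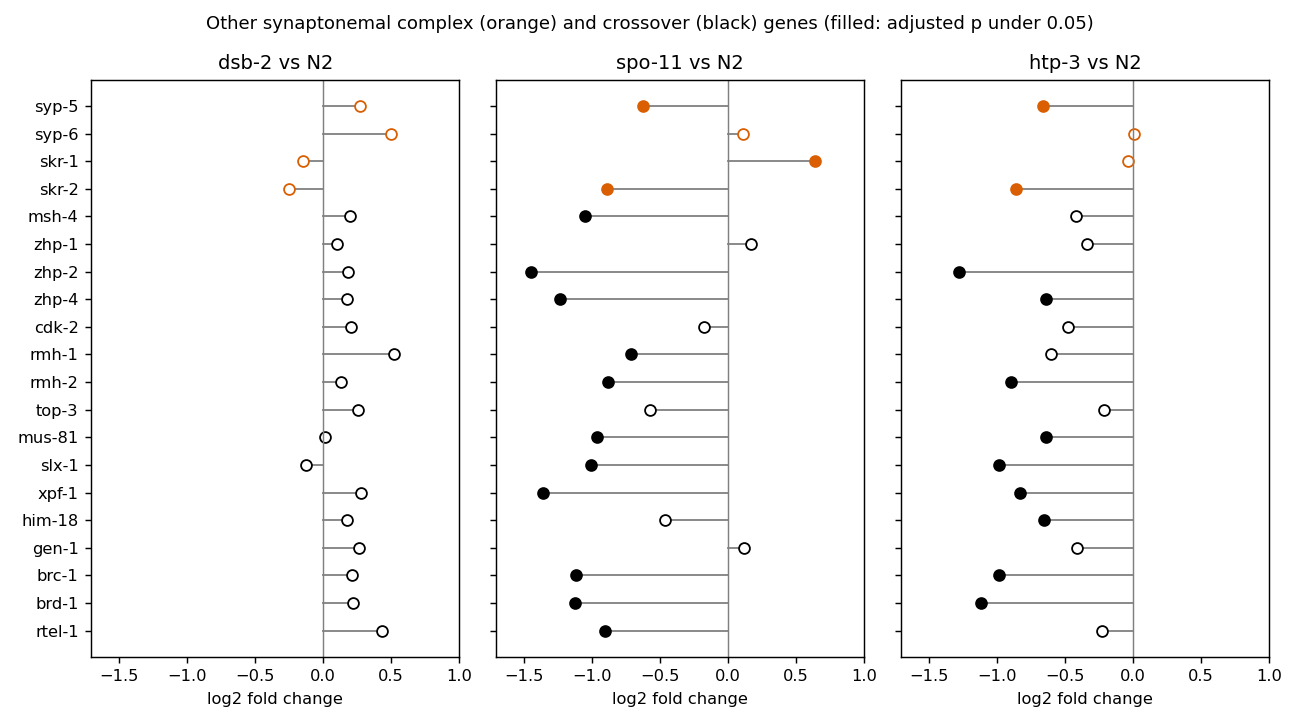
Log2 fold changes on the log2(TPM + 1) scale of 4 other central region genes (orange) and 16 other crossover genes (black) against N2, with filled points for an adjusted p under 0.05. In spo-11 zhp-2 lies farthest left at -1.45 and skr-1 is the filled point on the right at 0.63, and no point is filled in dsb-2.

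Chromosome axis and assembly genes were lower for 13 of 16 in spo-11 and 14 of 16 in htp-3, with medians of -0.80 and -0.81, but relative to the germline list 4 were lower and 1 higher in spo-11 and 1 was lower in htp-3. Under median-of-ratios scaling 16 of 16 were lower in both. The htp-3 count includes htp-3 itself. The shares of all genes lower were 22.1% and 19.7% in TPM and 39.9% and 34.7% under median-of-ratios scaling. Relative to the germline list 66.2% of all genes were higher and 3.10% lower in spo-11, and 53.8% and 0.549% in htp-3. The smallest p-values of this list in spo-11 were those of hal-2, needed for assembly of the complex (-1.53, adjusted p = 1.17e-06), and of the axis gene htp-1 (-0.96, adjusted p = 8.1e-06). The htp-1 and htp-2 genes are close paralogs, so reads may have been split between them and the htp-1 value is uncertain as that of a single gene.

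Genes of the germline outside recombination were lower too in TPM. Of the 20 germline reference genes 12 were lower in spo-11 and 13 in htp-3, beside 22.1% and 19.7% of all genes tested. The medians of the 20 were -0.73 and -0.78, and examples are deps-1 (-1.37 and -0.95) and gld-1 (-1.26 and -0.82). Their summed TPM ranged over 2596–2913 in N2, 3145–4450 in dsb-2, 1236–1657 in spo-11 and 1188–2450 in htp-3. That of the 8 genes ranged over 402.7–468 in N2, 372–499.9 in dsb-2, 285–331 in spo-11 and 201–336 in htp-3. All 12 oocyte genes were lower in both strains (medians -1.33 and -1.12), among them puf-5 (-1.76 and -1.41) and egg-1 (-1.63 and -1.30). The oocyte sum was 7388–7967 TPM in N2, 8681–13060 in dsb-2, 2706–3111 in spo-11 and 2443–5314 in htp-3. Relative to the germline list 7 oocyte genes were lower in spo-11 and 3 in htp-3, beside 3.10% and 0.549% of all genes.

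Markers of sperm and of somatic tissues were higher in number than lower in both strains, and their list medians stayed above 0 under each scaling tried. Of all genes tested, 55.6% were higher in spo-11 and 39.5% in htp-3, with medians of 0.80 and 0.27. The share of intestine markers higher in spo-11 was near that of all genes, and so was the sperm median in htp-3, at 0.32. Of 12 sperm genes 11 were higher in spo-11, among them spe-11 (5.34) and spe-26 (3.64), and 3 were higher and 1 lower in htp-3. Their summed TPM was 26.5–31.1 in N2, 34.2–37.8 in dsb-2, 235.3–443 in spo-11 and 22.2–34.9 in htp-3. Muscle markers were higher for 8 of 10 in spo-11 and 9 of 10 in htp-3 (unc-54, 3.20 and 2.42; unc-15, 2.17 and 1.43). Their sums were 1384–1665 TPM in N2, 1711–2121 in dsb-2, 3094–4048 in spo-11 and 2430–3518 in htp-3. Neuron markers were higher for 10 of 10 and 8 of 10 (sbt-1, 3.21 and 2.02; egl-21, 2.64 and 1.71), with sums of 253–334 TPM in N2, 341–355 in dsb-2, 745–948 in spo-11 and 427–478 in htp-3. Intestine markers were higher for 5 of 9, with 1 lower, and 7 of 9 (ifb-2, 2.79 and 1.93; ifc-2, 2.48 and 1.85), with sums of 2491–3097 TPM in N2, 2617–3008 in dsb-2, 5986–7746 in spo-11 and 5381–8406 in htp-3. Under median-of-ratios scaling the higher and lower counts in spo-11 were 7 and 1 for muscle, 8 and 0 for neurons and 4 and 2 for intestine, and in htp-3 7 and 1, 8 and 0, and 5 and 0. There, 44.2% of all genes were higher and 39.9% lower in spo-11, and 30.9% higher and 34.7% lower in htp-3. No marker was listed at 0 in all 3 libraries of a strain, and peel-1 and spe-38 of the sperm list were at 0 in some N2 or dsb-2 libraries. The part of these other tissues in the results of the 8 genes was not tested.

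How many of the 8 genes were called therefore depended on what the levels were set against. Median-of-ratios scaling, which sets the typical gene equal between libraries, moved the median of all genes from 0.80 to 0.16 in spo-11 and from 0.27 to 0.07 in htp-3. Under it 7 of the 8 genes were lower in each strain, with msh-5 the exception, where 39.9% of all genes were lower in spo-11 and 34.7% in htp-3. Relative to the mean of the 20 germline genes, cosa-1 alone was lower in spo-11 (-0.66 ± 0.225, adjusted p = 0.0167) and in htp-3 (-0.65 ± 0.225, adjusted p = 0.0254), against 3.10% and 0.549% of all genes. Of the 20 germline genes themselves, 4 were lower and 4 higher in spo-11 on that scale, and 0 lower and 2 higher in htp-3. On that scale syp-1 was higher in spo-11 (0.93 ± 0.204, adjusted p = 0.000743) and msh-5 was higher in both strains (0.77 ± 0.287, adjusted p = 0.0266, and 0.78 ± 0.287, adjusted p = 0.0336). There, 66.2% and 53.8% of all genes were higher. The syp-2 value on that scale was -0.03 in spo-11 and -0.22 in htp-3 (adjusted p = 0.924 and 0.508), and that of him-6 was -0.33 and -0.31 (adjusted p = 0.116 and 0.161).

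**Figure D4:**
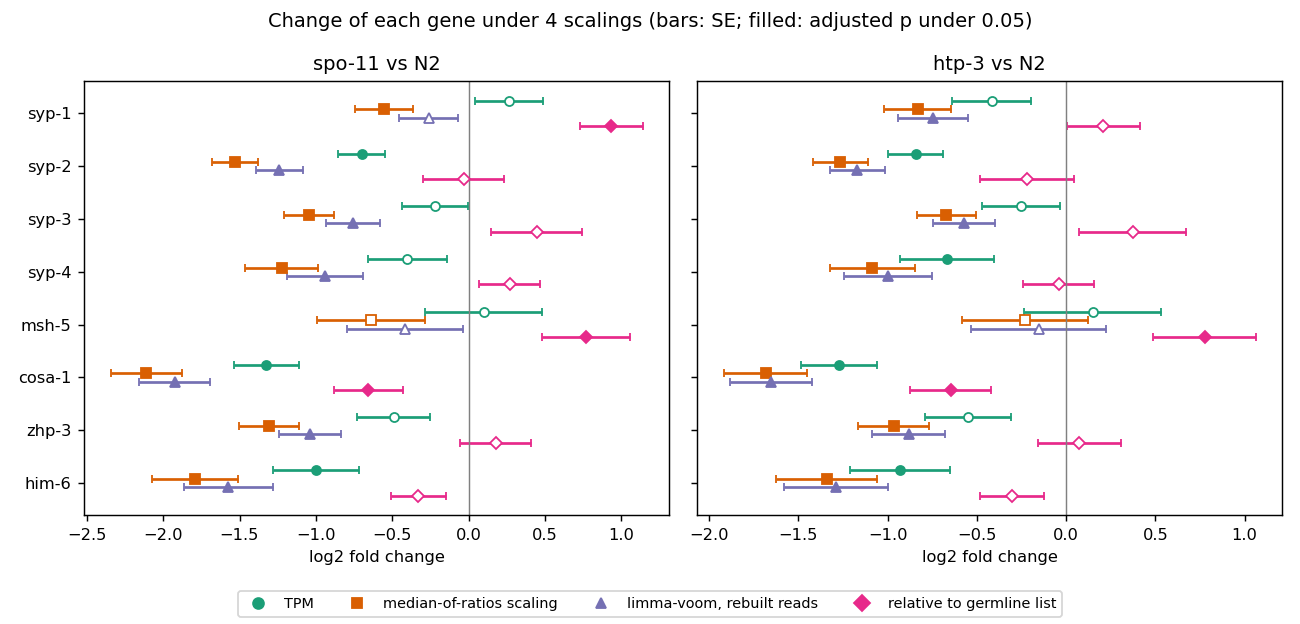
Log2 fold change of each gene in spo-11 and htp-3 against N2 under 4 scalings, with bars for the SE and filled points for an adjusted p under 0.05. Every gene shifts right relative to the germline list and left under median-of-ratios scaling, and cosa-1 is the gene whose 4 points are filled and below 0 in both panels.

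Ratios of pairs of genes within a library do not depend on its scaling, but a trend on exon length that differs between libraries can remain in them. Its part was not tested for these pairs, such as him-6 (3132 exon bases) and syp-1 (1574). These pairs were chosen after the values were seen, and 36 exact two-sided permutation tests over 12 ratios were run against N2; with 3 libraries against 3 none can go below p = 0.1, and the smallest adjusted p was 0.212. The ratio of cosa-1 to syp-1 was 1.02, 0.669 and 0.902 in N2 and 1.20, 0.698 and 0.958 in dsb-2. It was 0.250, 0.330 and 0.234 in spo-11 and 0.436, 0.513 and 0.415 in htp-3. The ratio was below every N2 library in all 6 spo-11 and htp-3 libraries (exact permutation p = 0.1 each), and dsb-2 overlapped N2 (exact permutation p = 0.7).

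The ratio of him-6 to syp-1 averaged 0.858 in N2, 1.19 in dsb-2, 0.348 in spo-11 and 0.598 in htp-3, with spo-11 and htp-3 below every N2 library. The ratio of cosa-1 to zhp-3 fell from 0.770 to 0.411 and 0.444 in the same way. The ratio of cosa-1 to him-6 was closer across strains, at 1.00, 0.819, 0.784 and 0.775 in N2, dsb-2, spo-11 and htp-3, and its spo-11 libraries overlapped N2, whereas its htp-3 libraries, at most 0.833, lay below every N2 library, the lowest at 0.847. The syp-1 to syp-2 ratio was 0.338 in N2 and 0.665 in spo-11 without overlap, and 0.452 in htp-3 with overlap. Among the ZHP genes, the ratio of zhp-2 to zhp-1 was 1.31 in N2, 1.38 in dsb-2, 0.412 in spo-11 and 0.671 in htp-3. The ratio of zhp-4 to zhp-3 was 0.371, 0.389, 0.202 and 0.335, with the spo-11 libraries below all N2 libraries and the others overlapping N2.

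**Figure D5:**
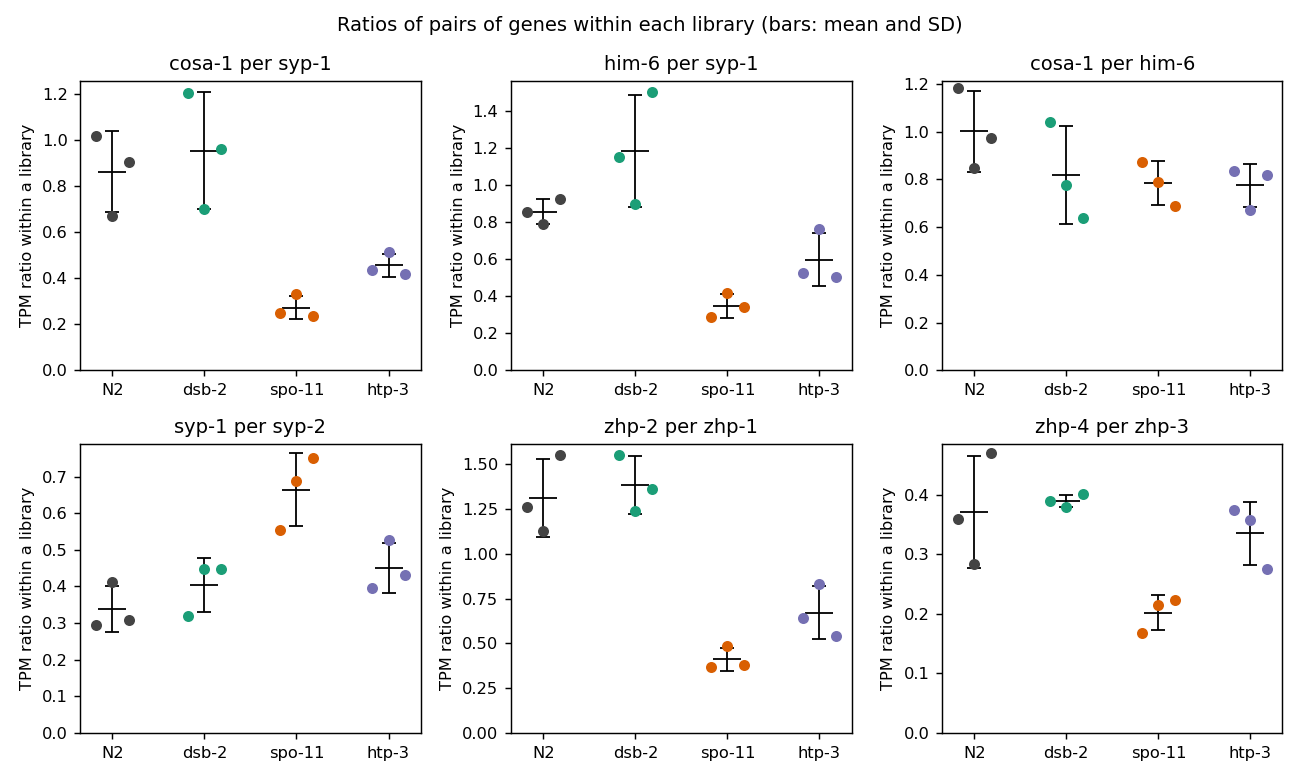
Ratios of TPM between 2 genes of the same library, by strain, with points for libraries and bars for the mean and SD of 3 libraries. For cosa-1 per syp-1 the spo-11 and htp-3 points, at most 0.513, lie below all N2 points, which start at 0.669; for cosa-1 per him-6 the strains lie closer together.

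Genes with a course like that of the 8 were sought among 8985 genes with a mean of at least 5 TPM, by the root mean square distance of centred log2(TPM + 1) values over the 12 libraries. Nearest to the mean course of the 8 were cyn-15 (0.063), ril-2 (0.063), cpsf-2 (0.071), aap-1 (0.074) and syf-1 (0.077). For single genes the nearest were skpt-1 for cosa-1 (0.060), F57C9.4 for zhp-3 (0.061), bra-2 for syp-2 (0.073), arl-1 for syp-3 (0.075) and him-18 for syp-4 (0.086). They were wago-1 for him-6 (0.097), T05A12.3 for syp-1 (0.102) and ZC376.6 for msh-5 (0.106). Among the 8 themselves the nearest pair was syp-4 and zhp-3 (0.171), followed by cosa-1 and him-6 (0.242), and the farthest was syp-3 and cosa-1 (0.737). The nearest of 8985 genes is likely to lie closer than the nearest of so few, so these distances cannot be set against those above. The distances are a description, and each library was scaled on its own.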

How the data were processed

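The deposited tables give TPM and RPKM values per gene and library, per the file headers. The authors used the WBcel235 build, as the submitters' processing notes list it; sources used here do not give the aligner, annotation release or strandedness. Positions are those of the tables, and 2 of the 8 genes have the same start and end in the Ensembl annotation used for comparison. Depth was taken from the RPKM values of 511 genes with 1 exon, which are whole multiples of the worth of 1 read. In each library at least 99.8% of them, those at 0 included, came out whole within 0.05 reads. The exon length of each gene was then searched for one that gave whole reads. One was found for 18042 of 18042 genes with values in at least 4 libraries. As the length was free, this cannot check the depth, and 4 lengths served for cosa-1 and 2 for msh-5.

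The test was limma 3.58.1 (R 4.3.3) on log2(TPM + 1) with a trended variance, 12 libraries in 1 fit with a mean per strain, over genes reaching 1 TPM in 3 or more libraries, with Benjamini-Hochberg adjustment over all 13650. This scale understates changes of low genes. Alternatives were RPKM, median-of-ratios scaling, values relative to 20 germline genes, pseudocounts of 0.1 and 5, no filter on low values, a filter at 5 TPM, a fit of only the strains compared, a replicate block, limma-voom on rebuilt reads with trimmed-mean scaling, and each library left out. Removal of a trend on exon length (lowess span 0.3) was added after seeing the data.

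Genes named are the 8, the mutated genes, 2 lists of related genes, the nearest genes by course, and the 2 members of each other list with the smallest p in spo-11. Genes overlapping the 8 were added after their values were seen. The 8 genes and all lists were chosen with earlier results of these data known. The intestine list had 10 genes, of which 9 were matched.

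Same-numbered libraries were checked for shared deviations from their strain means, as correlations across genes. Between spo-11 and htp-3 the values were 0.12, 0.44 and 0.23. No label says that the numbers pair libraries, in these or the other comparisons. The fit reported used no pairing, and only the replicate block alternative used the numbers. Differently numbered libraries were not compared, so the check cannot decide whether the numbers pair libraries. Against N2, at least 1 pair fell below 0.1 for each mutant (dsb-2 0.35, 0.39 and 0.07; spo-11 0.14, 0.04 and 0.34; htp-3 -0.1, 0.11 and 0.17).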

Additional observations from a re-analysis of the deposited data

How the results depend on the processing

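In dsb-2 none of the 8 genes was called under any alternative. Counts of lower genes in spo-11 (3) were 7 under median-of-ratios scaling, 6 with limma-voom, 6 with the exon length trend removed, 5 with only the strains compared and 1 relative to the germline list, with 2 higher; in htp-3 (4) they were 7, 7, 7, 3 and 1, with 1 higher. The share of all genes lower, 22.1% in spo-11 and 19.7% in htp-3 as reported, was, under the first 3 settings 39.9%, 35.2% and 40.4% in spo-11 and 34.7%, 32.1% and 33.6% in htp-3, and, with only the strains compared, 25.2% and 15.7%. Leaving out 1 library gave 3 to 4 lower genes in spo-11, beside 18.8% to 23.8% of all genes. In htp-3 it gave 2 to 6 lower genes, beside 13.1% to 24.2% of all genes. Between htp-3 and spo-11 the 1 lower gene became 0 under the first 3 settings. There, 26.4%, 31.9% and 23.9% of all genes were lower, against 38.6% as reported. Once the length trend was removed 2 of the 8 were higher, where 31.3% of all genes were higher. With a library left out 0 to 1 was lower, beside 32.3% to 38.7% of all genes. The cause was not tested. The median difference between genes with at least 1957 and at most 822 bases of exon was -0.74, -0.47 and -0.44 (log2) in spo-11 replicates 1 to 3, -0.40, 0.20 and -0.39 in htp-3, 0.24, 0.60 and 0.92 in dsb-2 and 0.12 to 0.28 in N2.

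With a replicate block 4 genes were lower in spo-11 and 5 in htp-3, zhp-3 being the addition (adjusted p = 0.0428 and 0.0336), and the block changed no other call, that between htp-3 and spo-11 included. Of all genes, 23.2% were lower in spo-11 and 21.5% in htp-3 with the block. Whether the numbers pair libraries was not decided for any comparison.

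Signs changed as follows (log2). Relative to the germline list: syp-1 -0.38, syp-4 -0.12, cosa-1 -0.25 and zhp-3 -0.32 in dsb-2; syp-3 0.45, syp-4 0.27 and zhp-3 0.18 in spo-11; syp-1 0.21, syp-3 0.37 and zhp-3 0.075 in htp-3. Under median-of-ratios scaling, limma-voom and length trend removal: in spo-11 syp-1 -0.55, -0.26 and -0.31 and msh-5 -0.64, -0.42 and -0.51; msh-5 in htp-3 -0.23, -0.15 and -0.10. In htp-3 against spo-11 these gave syp-2 0.26, 0.072 and 0.39, syp-3 0.38, 0.19 and 0.50 and zhp-3 0.34, 0.16 and 0.38, with syp-4 at 0.14 and 0.08 in the first and last. In dsb-2 syp-1 was 0 with limma-voom and -0.008 without the length trend. With RPKM, syp-1 was -0.15, cosa-1 -0.022 and zhp-3 -0.09 in dsb-2, and syp-3 0.009 in htp-3 against spo-11.

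Leaving out a library gave, in dsb-2, syp-1 -0.14 to 0.21 and zhp-3 -0.074 to 0.25; for msh-5 the range was -0.13 to 0.44 in spo-11, and in htp-3 it was -0.18 to 0.50. In htp-3 against spo-11 the ranges were syp-3 -0.22 to 0.14, syp-4 -0.58 to 0.055, msh-5 -0.28 to 0.40, cosa-1 -0.19 to 0.27, zhp-3 -0.23 to 0.22 and him-6 -0.27 to 0.34. None of these values was past the threshold in the fit reported, and 3 libraries per strain limit the precision.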

Other observations

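Within the summed TPM of syp-1 to syp-4, syp-1 made up 12.5%, 14.5% and 13.3% in N2 and 18.5%, 21.4% and 22.5% in spo-11, while syp-2 went from 42.3%, 35.2% and 43.1% to 33.3%, 31.1% and 29.9%; neither share overlapped between these strains. In htp-3 both shares overlapped N2 (syp-1 14.7%, 16.2% and 14.01%; syp-2 37.05%, 30.7% and 32.5%; exact permutation p = 0.2 each). In htp-3 the syp-3 share was 30.8%, 24.9% and 34.4%, above N2 at 22.03%, 24.7% and 24.4%. In dsb-2 the syp-4 share was 27%, 28.5% and 31.3%, above N2 at 23.1%, 25.6% and 19.2%. Each of these 4 differences gave an exact permutation p of 0.1, the smallest possible. Of the 12 share comparisons with N2 the other 8 overlapped, with exact permutation p from 0.2 to 0.7, and the shares were chosen after the values were seen.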
